A study of Homo sapiens with 9 samples.

Results

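The integrin and laminin genes described here are 37 of the 34789 genes in the expression table of this series. They were chosen by name, as the protein-coding rows whose symbol is an integrin alpha or beta subunit (ITGA and ITGB genes) or a laminin alpha, beta or gamma chain (LAMA, LAMB and LAMC genes). The 37 comprise 18 integrin alpha, 8 integrin beta, 5 laminin alpha, 4 laminin beta and 2 laminin gamma genes. Of these, 19 had a mean of at least 1 FPKM (sequenced fragments scaled by transcript length and by the depth of the sample) over all samples and entered the tests. The other 18 were below that level and are described by their values. All were measured by RNA sequencing of H1299, a human non-small cell lung carcinoma line that lacks p53 and that the labels call epithelial-like.

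Cells received 50 nM of a small interfering RNA (siRNA) with the transfection reagent Lipofectamine RNAiMAX. The siControl group, labelled WT in genotype, received a control siRNA. The siFOXN3-1 and siFOXN3-2 groups, labelled as FOXN3 knockdown, each received a different siRNA against FOXN3, a forkhead transcription repressor. Each group had 3 samples, and all 3 groups were transfected. For siFOXN3-2 the treatment labels state another RNAiMAX of the same kind, and for its samples 2 and 3 they name siFOXN4 and siFOXN5, whereas the titles of both name siFOXN3-2. Nothing in the labels says that the samples of a group came from separate cultures. The p-values therefore reflect how much these samples vary, and that variation may be purely technical. Both knockdown groups are compared with the same siControl samples, so their values are given side by side and are not independent of each other.

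FOXN3 itself was at 4.85, 5.25 and 5.00 FPKM in siControl, 1.28, 1.24 and 1.16 with siFOXN3-1 and 0.858, 0.958 and 1.06 with siFOXN3-2. The knockdown samples lay at 0.858 to 1.28 FPKM and none reached the siControl range. The log2 fold change of FPKM + 1 was -1.44 ± 0.0708 (SE, adjusted p = 1.42e-07 by limma) with siFOXN3-1 and -1.62 ± 0.0708 (SE, adjusted p = 8.16e-08 by limma) with siFOXN3-2. Depth was 17.0 to 19.6 M fragments per sample. Mitochondrially encoded genes took 13.2 to 14.2% of summed FPKM in siControl, 7.27 to 9.02% with siFOXN3-1 and 7.36 to 9.07% with siFOXN3-2, and the part of this shift in the results was not tested. Of the 8 epithelial markers, the keratins KRT8 (84.7 to 130.0 FPKM over the samples) and KRT18 (163 to 239 FPKM) were high. With siFOXN3-1, 2 of the 8 (KRT8 and KRT18) lay above siControl in all samples, 3 (KRT19, CLDN4 and MUC1) below it, and 3 overlapped. With siFOXN3-2, 1 (CDH1) lay above siControl in all samples and 3 (KRT8, CLDN4 and MUC1) below it. The other 4, among them KRT18, overlapped. The keratins KRT7 (highest value 1.15 FPKM) and KRT19 (highest 0.450) were low, as were CLDN4 (highest 2.49) and MUC1 (highest 1.12 FPKM). CDH1 (highest value 0.0806 FPKM) and EPCAM (highest 0.280 FPKM), defining genes of differentiated epithelium, were near 0. Of the lung epithelial markers, AGER was at 1.98 to 3.31 FPKM, whereas NKX2-1 did not exceed 0.650, NAPSA 0.254 and SFTPB 0.0634 FPKM. The 10 leukocyte markers summed to 0.895 to 1.63 FPKM in siControl, 0.420 to 0.601 with siFOXN3-1 and 2.09 to 2.80 with siFOXN3-2. The 8 fibroblast and muscle markers summed to 2.95 to 3.22, 1.84 to 2.26 and 4.40 to 5.86 FPKM in the same order. With siFOXN3-2, 5 of these 8 (COL1A1, COL1A2, COL3A1, DCN and LUM) lay above siControl in all samples, 2 (ACTA2 and MYH11) below it, and 1 overlapped. DCN (lowest 0.0603 against at most 0.0596 FPKM in siControl) and LUM (lowest 0.0180 against 0) were near 0. With siFOXN3-1, 0 of the 8 lay above siControl, 4 (COL1A1, COL3A1, ACTA2 and MYH11) below it, and 4 overlapped. Of all tested genes, 71.1% did not overlap with siControl with siFOXN3-1 and 68.2% with siFOXN3-2. The endothelial list did not exceed 0.616 FPKM, nor the megakaryocyte list 1.04 FPKM, in any sample.

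Integrins are cell-surface receptors made of 1 alpha and 1 beta subunit, which bind matrix proteins outside the cell and connect them to the actin or keratin cytoskeleton inside it. The alpha subunit largely sets the ligand: ITGA3, ITGA6 and ITGA7 serve laminin receptors, ITGA1, ITGA2, ITGA10 and ITGA11 collagen receptors, ITGA5 and ITGAV receptors for fibronectin and vitronectin, and ITGA4 a receptor for fibronectin and VCAM1. Laminins are cross-shaped trimers of 1 alpha, 1 beta and 1 gamma chain that form the sheet of the basement membrane. LAMA3 and LAMB3 are chains of the laminin that epithelial cells deposit beneath hemidesmosomes and during migration, and LAMA5 joins LAMB1 or LAMB2 and LAMC1 in the laminins of mature basement membranes.

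In siControl cells the order of levels, which FPKM gives per transcript length, began with ITGA3 at 174 ± 8.52 FPKM (SD, n = 3) and its partner ITGB1 at 172 ± 2.13 FPKM, whose ranges overlapped. ITGA6 followed at 48.7 ± 3.45 FPKM. LAMC1 (29.4 ± 3.01), LAMB3 (28.7 ± 1.25) and ITGB5 (27.9 ± 1.57 FPKM) overlapped in range, and so did LAMB1 (24.2 ± 1.34) with LAMB2 (23.1 ± 1.47 FPKM). ITGA5 at 18.3 ± 0.933 and ITGAV at 15.7 ± 0.173 FPKM did not overlap with each other, while LAMA5 at 16.8 ± 2.29 FPKM overlapped with both. Below them came ITGB4 at 9.10 ± 0.863 FPKM. ITGA4 (6.61 ± 0.392) overlapped with ITGA2 (6.12 ± 0.525), and ITGA2 with LAMA2 (5.33 ± 0.470 FPKM). The lowest of the tested genes were ITGA10 (3.10 ± 0.261), ITGAE (2.01 ± 0.303), ITGB3 (1.93 ± 0.240) and ITGA7 (1.34 ± 0.208 FPKM), of which ITGAE and ITGB3 overlapped. H1299 cells carried mostly messenger RNA for laminin-binding and fibronectin-binding integrins, and little for the leukocyte, platelet and collagen-binding subunits listed at the end of the results.

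**Figure D1:**
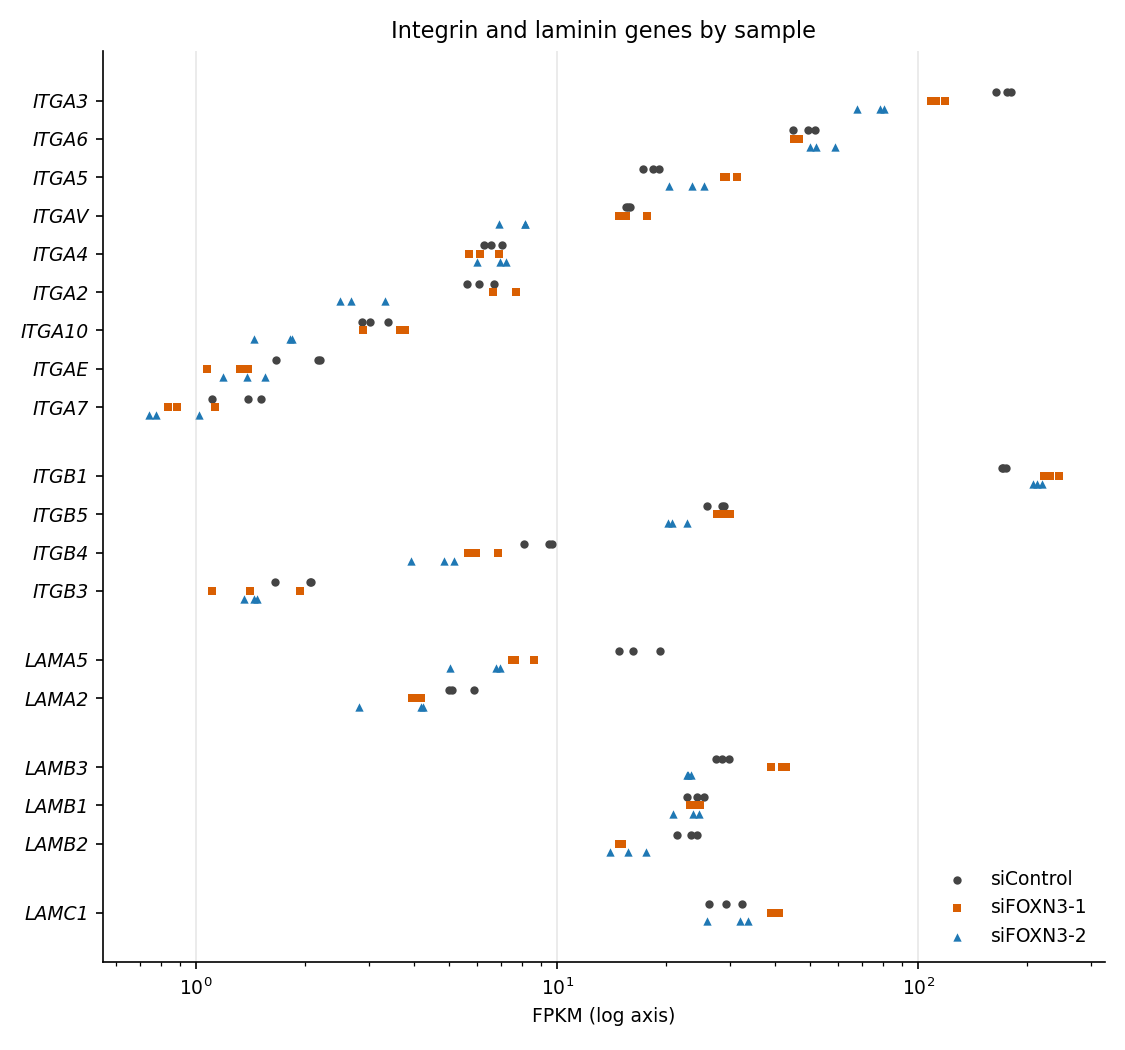
FPKM of the 19 tested integrin and laminin genes in each of the 9 samples, on a log axis, ordered by family and by level in siControl; every symbol is 1 sample. ITGA3 and ITGB1 stand at the top in siControl, and ITGA3, LAMA5, ITGAV and ITGA2 show the widest gaps between groups.

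Promoter sequence was looked at for the genes that have an entry in the RefSeq promoter table, which spans 250 bases before to 50 bases after each annotated start and uses the build GRCh38.p14. It held 33 windows for 26 of the 37 genes, and 22 windows for 15 of the 19 tested genes. Windows were searched on both strands for TGANTCA, the site of the AP-1 factors, for GTAAACA, a forkhead site, and for GACGC, a site read by some forkhead proteins. The AP-1 letters were in 7.71% of all 35116 windows and in 3 of the 33 integrin and laminin windows. These were of ITGA5 and of downstream starts of LAMA3 and LAMB3. The LAMA3 window begins at 23872770, whereas the gene begins at 23689443. These 3 windows are shown because AP-1 genes changed in the same samples; the capitals mark the AP-1 letters on either strand. The forkhead letters GTAAACA were in 3.42% of all windows and in 0 of these 33, which says only that the letters are not in these windows. GACGC was in 35.3% of all windows and in 16 of the 33 (48.5%). The window of LAMA5, the gene with the largest fall, is shown last with its GACGC letters, or their complement, in capitals. They began at position 45 counted from the annotated start. GACGC was also in windows of ITGA5 and ITGB1, called higher with both siRNAs, and of ITGA4, ITGA6 and LAMB1, called with neither. It was not in those of ITGAE, LAMA2 and LAMB2, called lower with both.
ITGA5, chr12:54419217-54419516, minus strand: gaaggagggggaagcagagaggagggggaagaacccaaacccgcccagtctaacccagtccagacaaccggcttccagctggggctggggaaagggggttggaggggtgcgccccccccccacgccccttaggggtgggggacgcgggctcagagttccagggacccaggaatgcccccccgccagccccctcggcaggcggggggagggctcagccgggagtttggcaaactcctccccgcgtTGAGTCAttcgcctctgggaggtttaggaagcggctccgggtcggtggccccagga
LAMB3, chr1:209651325-209651624, minus strand: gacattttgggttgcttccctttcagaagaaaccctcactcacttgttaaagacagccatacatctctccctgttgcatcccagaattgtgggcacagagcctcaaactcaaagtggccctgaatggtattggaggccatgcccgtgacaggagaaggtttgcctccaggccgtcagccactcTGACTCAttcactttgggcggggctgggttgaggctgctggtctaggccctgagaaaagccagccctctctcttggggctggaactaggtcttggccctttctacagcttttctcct
LAMA3, chr18:23872770-23873069, plus strand: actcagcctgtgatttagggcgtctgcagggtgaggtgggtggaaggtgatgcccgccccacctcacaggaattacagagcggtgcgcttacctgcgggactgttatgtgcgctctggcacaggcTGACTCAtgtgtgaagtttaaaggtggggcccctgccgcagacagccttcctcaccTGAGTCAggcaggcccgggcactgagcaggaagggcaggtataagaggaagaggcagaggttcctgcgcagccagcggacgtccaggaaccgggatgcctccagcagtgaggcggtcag
LAMA5, chr20:62367263-62367562, minus strand: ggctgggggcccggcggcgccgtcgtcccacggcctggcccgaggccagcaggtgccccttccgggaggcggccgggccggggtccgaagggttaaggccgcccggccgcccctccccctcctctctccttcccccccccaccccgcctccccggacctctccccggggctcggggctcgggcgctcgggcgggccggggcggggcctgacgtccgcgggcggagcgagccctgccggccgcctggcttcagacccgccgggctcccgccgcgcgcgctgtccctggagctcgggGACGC
A match is a description of letters and not evidence of binding. In ITGA5 the AP-1 letters began at position -6 counted from the annotated start, and in the LAMB3 window at -67. The GC content of the windows was 69.3% for ITGA5, 53.7% for LAMB3, 61.7% for LAMA3 and 82.7% for LAMA5. The 7 tested genes of the AP-1 factors (FOS, FOSB, FOSL1, FOSL2, JUN, JUNB and JUND) were chosen with their values known. All were called higher with both siRNAs, as were 15.3% of all tested genes. FOSB was at 0.492 FPKM in siControl and entered the tests only through the siRNA groups (4.08 and 3.31 FPKM), so no direction is read from it. FOSL1 was the most abundant in siControl, at 113 ± 5.75 FPKM against 332 ± 20.6 with siFOXN3-1 and 255 ± 15.8 with siFOXN3-2 (SD, n = 3 each), and JUN was at 29.3 ± 2.11, 297 ± 29.4 and 175 ± 13.6 FPKM.

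With siFOXN3-1, 4 of the 19 genes were called higher and 6 lower at an adjusted p under 0.05 (limma on log2 of FPKM + 1, adjusted over all 12707 tested genes), and with siFOXN3-2, 2 were higher and 12 lower. The 12 include ITGA7, which entered the tests only through its siControl level; the other 18 genes gave 2 higher and 11 lower. Over all tested genes, 19.3% were higher and 45.3% lower with siFOXN3-1, and 24.1% were higher and 39.2% lower with siFOXN3-2. The integrin and laminin counts stood at 4 of 19 and 6 of 19, and at 2 of 19 and 12 of 19, beside these shares. Groups did not overlap for 10 of the 19 with siFOXN3-1, where 71.1% of all tested genes did not, and for 15 of the 19 with siFOXN3-2, where the share was 68.2%. The median log2 fold change of the 19 was -0.08 with siFOXN3-1 and -0.34 with siFOXN3-2, beside -0.17 and -0.10 for all tested genes. The siFOXN3-2 median is the value of ITGA7 itself, and the 15 genes without overlap include ITGA7. On either side of that median stood ITGB5 at -0.37 and ITGAE at -0.34. Scaling each sample by its median ratio to the other samples brought the medians of all genes to 0.00 and -0.00. The siFOXN3-1 split then became 9 higher and 5 lower, because LAMB1 reversed from -0.00 to 0.20 (limma, adjusted p = 0.0245) and ITGAV, ITGA2, ITGA10 and ITGB5 also passed the threshold as higher, while LAMA2 no longer passed as lower. The same scaling gave 3 higher and 12 lower with siFOXN3-2, where ITGA6 passed as higher (0.25), and split all tested genes into 3979 higher and 3939 lower with siFOXN3-1 and 3912 higher and 3948 lower with siFOXN3-2. In bulk RNA, fewer cells of a kind and less RNA per cell cannot be told apart, here and in all results below.

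**Figure D2:**
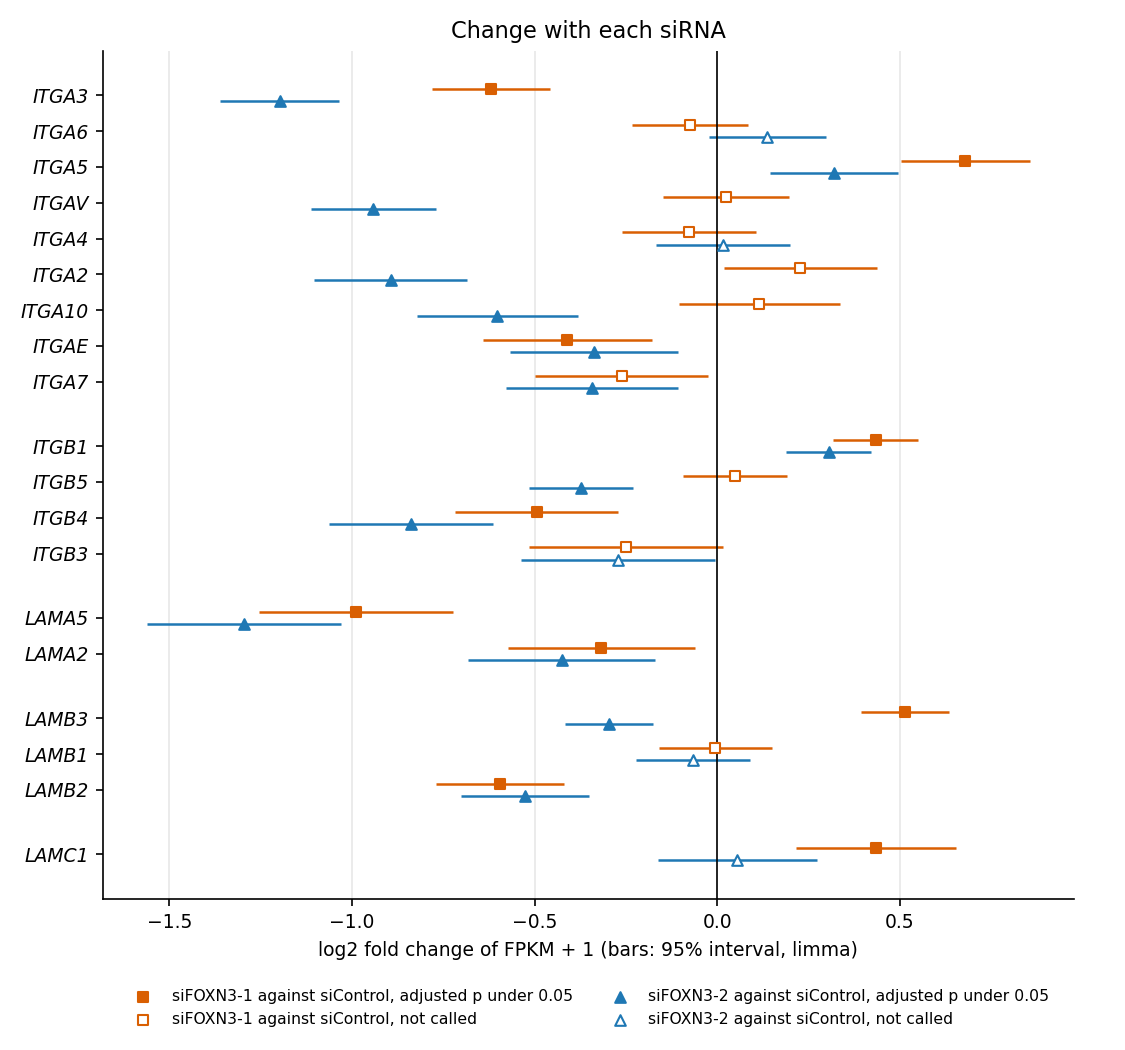
Log2 fold change of FPKM + 1 against siControl for the 19 tested genes (x axis), with 95% intervals from limma; orange squares are siFOXN3-1, blue triangles siFOXN3-2, filled where the adjusted p was under 0.05. ITGA3, LAMA5, ITGB4 and LAMB2 lie below 0 with both siRNAs, ITGA5 and ITGB1 above 0 with both, and LAMB3 on opposite sides of 0.

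Among the laminin-binding alpha subunits, ITGA3 fell with both siRNAs and ITGA6 was not called with either. ITGA3 (chr17:50055968-50090481, GENCODE 29 on GRCh38), which pairs with ITGB1, was at 165, 181 and 176 FPKM in siControl, 108, 118 and 112 with siFOXN3-1 and 80.2, 67.6 and 78.4 with siFOXN3-2. The 3 groups were fully separate, with siControl highest and siFOXN3-2 lowest. Its log2 fold change was -0.62 ± 0.0728 (SE, adjusted p = 4.04e-05 by limma) with siFOXN3-1 and -1.20 ± 0.0728 (SE, adjusted p = 6.35e-07 by limma) with siFOXN3-2, which left 64.9% and 43.3% of the siControl mean. The fall was larger with siFOXN3-2 by a difference of -0.58 ± 0.0728 (SE, adjusted p = 3.42e-04 by limma). ITGA6 (chr2:172427354-172506282), which pairs with ITGB1 or with ITGB4 in hemidesmosomes, was at 45.0, 51.7 and 49.4 FPKM in siControl, 46.8, 46.4 and 45.2 with siFOXN3-1 and 50.0, 52.2 and 58.9 with siFOXN3-2. The siFOXN3-1 samples lay inside the siControl range and 2 of the 3 siFOXN3-2 samples above it. Against siControl the log2 fold changes were -0.08 ± 0.0713 (SE, adjusted p = 0.376 by limma) with siFOXN3-1 and 0.14 ± 0.0713 (SE, adjusted p = 0.115 by limma) with siFOXN3-2. Between the siRNAs ITGA6 was higher with siFOXN3-2 by 0.21 ± 0.0713 (SE, adjusted p = 0.0403 by limma), a call that was lost in 13 of 20 alternatives, among them without siControl sample 3 (0.0588), without any 1 siFOXN3-1 sample (0.0682 to 0.102) and without siFOXN3-2 sample 2 or 3 (0.0543 and 0.131, adjusted p). ITGA7, a laminin receptor subunit best known from muscle, was at 1.11, 1.39 and 1.51 FPKM in siControl, 1.12, 0.835 and 0.887 with siFOXN3-1 and 1.01, 0.774 and 0.738 with siFOXN3-2. Its siFOXN3-2 samples lay below siControl without overlap, while siFOXN3-1 overlapped. ITGA7 reached the mean of 1 FPKM needed for the test only through siControl (means of 1.34 in siControl, 0.949 with siFOXN3-1 and 0.842 with siFOXN3-2), which favours a lower value with the siRNAs, so its values are given as a description and no direction is read from them. In the fit its log2 fold changes were -0.26 ± 0.106 (SE, adjusted p = 0.0515 by limma) and -0.34 ± 0.106 (SE, adjusted p = 0.0166 by limma). The first passed as lower under 6 of 20 alternatives, among them without siControl sample 1 (-0.33, adjusted p = 0.0283) or siFOXN3-1 sample 1 (-0.33, adjusted p = 0.0354), and without siControl sample 3 or siFOXN3-2 sample 3 the second was -0.29, adjusted p = 0.0639 and -0.30, adjusted p = 0.0556.

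The fibronectin-binding subunit ITGA5 rose with both siRNAs, while ITGAV fell with siFOXN3-2. ITGA5 (chr12:54395261-54419460), the classical fibronectin receptor subunit and a partner of ITGB1, was at 17.3, 19.2 and 18.4 FPKM in siControl, 29.3, 31.5 and 28.98 with siFOXN3-1 and 25.5, 20.4 and 23.6 with siFOXN3-2. All knockdown samples exceeded all siControl samples, and siFOXN3-1 exceeded siFOXN3-2. On the log2 scale the change was 0.68 ± 0.0789 (SE, adjusted p = 3.69e-05 by limma) with siFOXN3-1 and 0.32 ± 0.0789 (SE, adjusted p = 0.00505 by limma) with siFOXN3-2, and the siRNAs differed by -0.36 ± 0.0789 (SE, adjusted p = 0.00620 by limma). ITGAV (chr2:186590065-186680901), which pairs with ITGB1, ITGB3, ITGB5, ITGB6 or ITGB8 and binds vitronectin and latent TGF-beta, was at 15.5, 15.9 and 15.7 FPKM in siControl, 17.7, 15.5 and 14.9 with siFOXN3-1 and 6.89, 8.13 and 8.16 with siFOXN3-2. The siFOXN3-1 values spanned those of siControl, and the siFOXN3-2 values were about 49.2% of siControl. Its log2 fold change was 0.02 ± 0.0773 (SE, adjusted p = 0.802 by limma) with siFOXN3-1 and -0.94 ± 0.0773 (SE, adjusted p = 4.03e-06 by limma) with siFOXN3-2, a difference between the siRNAs of -0.96 ± 0.0773 (SE, adjusted p = 3.73e-05 by limma). The ratio of ITGAV to ITGA5 FPKM went from 0.859 ± 0.0349 in siControl to 0.537 ± 0.0592 and 0.338 ± 0.0641 (SD, n = 3 each), without overlap between any groups; this ratio has no test. ITGA4, which binds fibronectin and VCAM1, was at 6.26, 7.03 and 6.54 FPKM in siControl, 6.89, 6.10 and 5.70 with siFOXN3-1 and 6.93, 5.98 and 7.19 with siFOXN3-2. All 3 groups overlapped, and the log2 fold changes were -0.08 ± 0.0824 (SE, adjusted p = 0.432 by limma) and 0.01 ± 0.0824 (SE, adjusted p = 0.886 by limma).

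The collagen-binding subunits ITGA2 and ITGA10 fell with siFOXN3-2. ITGA2 (chr5:52989326-53094779), a collagen and laminin receptor of epithelia and platelets, was at 5.62, 6.66 and 6.08 FPKM in siControl, 7.69, 7.67 and 6.64 with siFOXN3-1 and 2.68, 2.501 and 3.34 with siFOXN3-2. The siFOXN3-2 samples were the lowest, far from the other groups, and siFOXN3-1 overlapped with the upper end of siControl. The log2 fold changes were 0.23 ± 0.0938 (SE, adjusted p = 0.0545 by limma) with siFOXN3-1 and -0.89 ± 0.0938 (SE, adjusted p = 2.01e-05 by limma) with siFOXN3-2. The difference between the siRNAs, -1.12 ± 0.0938 (SE, adjusted p = 4.48e-05 by limma), was the largest of the 19 genes. The siFOXN3-1 value of ITGA2 lay just short of the threshold and passed as higher under 9 of 20 alternatives, for example without siControl sample 2 (0.28, adjusted p = 0.0404) or siFOXN3-1 sample 3 (0.29, adjusted p = 0.0321). ITGA10, best known from cartilage, was at 3.03, 3.39 and 2.88 FPKM in siControl, 3.66, 3.79 and 2.90 with siFOXN3-1 and 1.82, 1.44 and 1.85 with siFOXN3-2. Again siFOXN3-2 stood alone below the other 6 samples. Against siControl the log2 fold changes were 0.11 ± 0.0990 (SE, adjusted p = 0.329 by limma) and -0.60 ± 0.0990 (SE, adjusted p = 4.17e-04 by limma), with a difference between the siRNAs of -0.72 ± 0.0990 (SE, adjusted p = 5.82e-04 by limma). ITGAE, the E-cadherin receptor subunit of intraepithelial lymphocytes, shares 7.59% of its exon length with genes on the opposite strand, whose reads cannot be told apart in a library that does not mark strand. It was at 2.19, 1.66 and 2.17 FPKM in siControl, 1.07, 1.39 and 1.32 with siFOXN3-1 and 1.39, 1.56 and 1.19 with siFOXN3-2. Both knockdown groups lay below siControl without overlap. In the fit its log2 fold changes were -0.41 ± 0.103 (SE, adjusted p = 0.00555 by limma) with siFOXN3-1 and -0.34 ± 0.103 (SE, adjusted p = 0.0158 by limma) with siFOXN3-2. With quantile normalization neither passed (-0.17 and -0.15), and the siFOXN3-2 value did not pass without siControl sample 1 (-0.29, adjusted p = 0.0580), siControl sample 3 (-0.30, adjusted p = 0.0581) or siFOXN3-2 sample 3 (-0.28, adjusted p = 0.0585).

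Of the beta subunits, ITGB1 rose and ITGB4 fell with both siRNAs. ITGB1 (chr10:32900319-33005792), the partner of most alpha subunits expressed here, was at 171, 175 and 172 FPKM in siControl, 246, 231 and 224 with siFOXN3-1 and 207, 213 and 219.9 with siFOXN3-2. The 3 groups did not overlap, with siFOXN3-1 highest. In the fit its log2 fold change was 0.43 ± 0.0525 (SE, adjusted p = 4.83e-05 by limma) with siFOXN3-1 and 0.31 ± 0.0525 (SE, adjusted p = 5.57e-04 by limma) with siFOXN3-2, and both calls were lost with quantile normalization, where the values were 0.13 (adjusted p = 0.113) and 0.10 (0.196). ITGB4 (chr17:75721328-75757818), the hemidesmosomal partner of ITGA6, was at 8.11, 9.51 and 9.68 FPKM in siControl, 5.96, 6.87 and 5.68 with siFOXN3-1 and 5.18, 3.94 and 4.84 with siFOXN3-2. The groups again did not overlap and siFOXN3-2 was lowest. Its log2 fold change was -0.49 ± 0.1005 (SE, adjusted p = 0.00154 by limma) and -0.84 ± 0.1005 (SE, adjusted p = 4.96e-05 by limma). The difference between the siRNAs was -0.34 ± 0.1005 (SE, adjusted p = 0.0231 by limma), and it did not pass without siFOXN3-1 sample 2 (-0.28, adjusted p = 0.0903) or siFOXN3-2 sample 2 (-0.25, adjusted p = 0.0663). ITGB5, a vitronectin receptor subunit and partner of ITGAV, was at 26.1, 28.9 and 28.7 FPKM in siControl, 30.1, 28.8 and 27.6 with siFOXN3-1 and 22.8, 20.3 and 20.8 with siFOXN3-2. The siFOXN3-2 samples lay below all others, and siFOXN3-1 overlapped with siControl. The log2 fold changes were 0.05 ± 0.0638 (SE, adjusted p = 0.525 by limma) and -0.37 ± 0.0638 (SE, adjusted p = 5.40e-04 by limma), and the siRNAs differed by -0.42 ± 0.0638 (SE, adjusted p = 9.52e-04 by limma). ITGB3, the other classical partner of ITGAV, shares 51.6% of its exon length with an overlapping gene on the same strand, so its values are uncertain. It was at 1.66, 2.07 and 2.07 FPKM in siControl, 1.94, 1.41 and 1.10 with siFOXN3-1 and 1.44, 1.36 and 1.47 with siFOXN3-2. The siFOXN3-1 samples overlapped with siControl and the siFOXN3-2 samples did not. Against siControl the log2 fold changes were -0.25 ± 0.119 (SE, adjusted p = 0.0903 by limma) and -0.27 ± 0.119 (SE, adjusted p = 0.0696 by limma); the second passed as lower under 5 of 20 alternatives, among them without siControl sample 1 (-0.34, adjusted p = 0.0480), and the first without siFOXN3-1 sample 1 (-0.38, adjusted p = 0.0111).

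Summed over the family, the alpha level was lower and the beta level higher in every knockdown sample than in any siControl sample. The alpha sum was 279 ± 14.1 FPKM for the siControl samples, 226 ± 6.86 for siFOXN3-1 and 175 ± 11.9 for siFOXN3-2 (SD, n = 3 each). The beta sum was 212 ± 4.41, 271 ± 13.0 and 241 ± 5.40 FPKM in the same order. The ratio of the sums was 1.32 ± 0.0394 in siControl, 0.838 ± 0.0411 with siFOXN3-1 and 0.726 ± 0.0413 with siFOXN3-2, and the 3 groups did not overlap. ITGA3 made up 62.2% ± 0.125 of the alpha sum in siControl, 49.9% ± 1.44 with siFOXN3-1 and 43.0% ± 1.72 with siFOXN3-2. The share of ITGA6 was 17.4% ± 0.361, 20.4% ± 0.493 and 30.7% ± 2.30, and that of ITGA5 6.55% ± 0.0201, 13.2% ± 0.227 and 13.2% ± 0.927. ITGB1 made up 81.3% ± 0.911, 86.3% ± 0.263 and 88.4% ± 0.946 of the beta sum. Ratios and shares within a sample do not depend on the scaling of the sample, and they are given with no test.

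**Figure D3:**
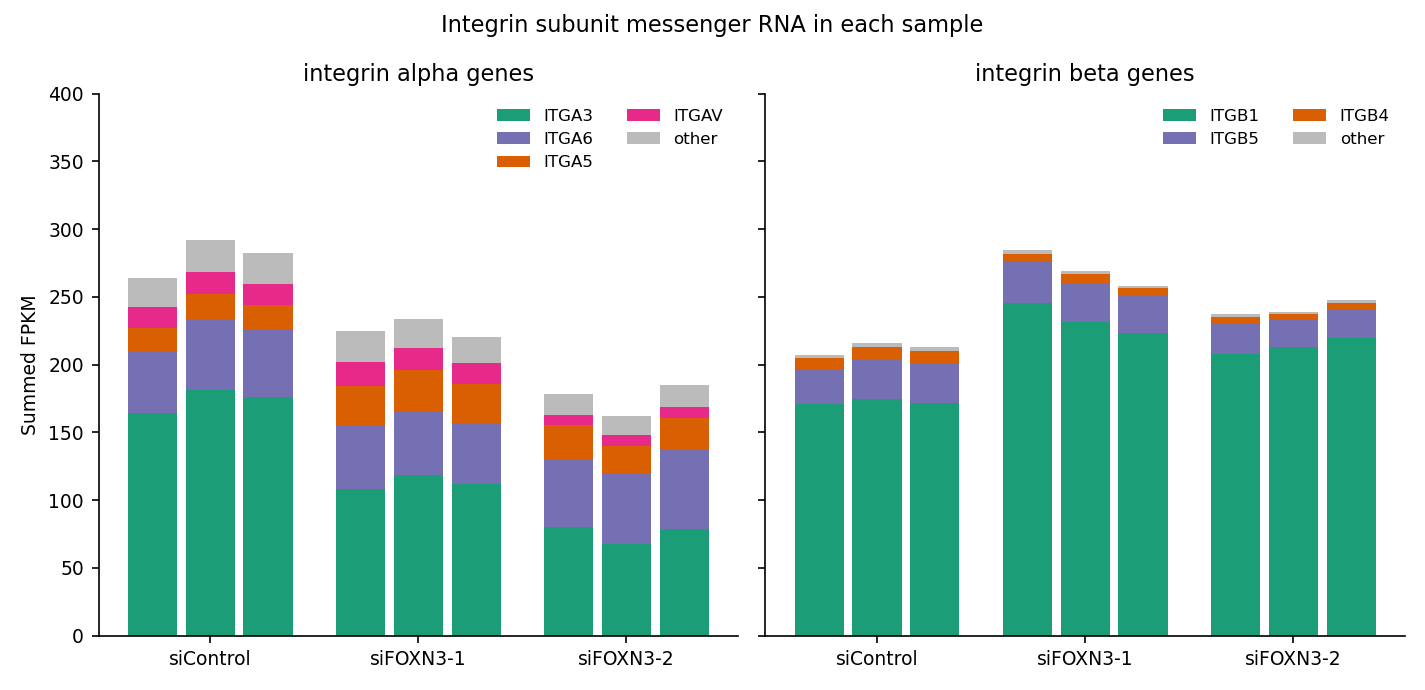
Summed FPKM of the integrin alpha genes (left) and beta genes (right) in each of the 9 samples, with the leading genes as stacked colours. The alpha bars reach 264 to 292 FPKM in siControl and 162 to 185 with siFOXN3-2, with the green ITGA3 segment much shorter there, and the beta bars are taller in both knockdown groups.

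Both tested laminin alpha chains fell with both siRNAs. LAMA5 (chr20:62307955-62367312), the alpha chain of the broad basement membrane laminins, was at 14.8, 19.3 and 16.2 FPKM in siControl, 7.66, 8.61 and 7.48 with siFOXN3-1 and 6.95, 5.04 and 6.76 with siFOXN3-2. Every knockdown sample was below every siControl sample, and the siFOXN3-2 samples were below those of siFOXN3-1. Its log2 fold change against siControl was -0.99 ± 0.119 (SE, adjusted p = 4.67e-05 by limma) with siFOXN3-1 and -1.30 ± 0.119 (SE, adjusted p = 8.26e-06 by limma) with siFOXN3-2, the largest fall of the 19 genes in both comparisons. The difference between the siRNAs, -0.31 ± 0.119 (SE, adjusted p = 0.0690 by limma), did not pass, with a 95% interval of -0.57 to -0.04. LAMA2, the laminin alpha chain of muscle and peripheral nerve, was at 5.00, 5.87 and 5.12 FPKM in siControl, 3.97, 4.21 and 4.04 with siFOXN3-1 and 4.26, 2.82 and 4.19 with siFOXN3-2. Both knockdown groups lay below siControl. In the fit its log2 fold changes were -0.32 ± 0.115 (SE, adjusted p = 0.0327 by limma) and -0.43 ± 0.115 (SE, adjusted p = 0.00834 by limma). The siFOXN3-1 call was lost under 9 of 20 alternatives, among them with the medians of all genes aligned (-0.15, adjusted p = 0.277) and without siControl sample 2 or 3 (-0.26 and -0.34, adjusted p = 0.111 and 0.0534) or any 1 siFOXN3-1 sample (-0.34 to -0.30, adjusted p = 0.0566 to 0.0793).

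The laminin chain LAMB3 rose with siFOXN3-1 and fell with siFOXN3-2. LAMB3 (chr1:209614870-209652466), a beta chain specific to epithelial laminin, was at 27.5, 30.0 and 28.6 FPKM in siControl, 39.2, 43.0 and 42.0 with siFOXN3-1 and 23.1, 22.8 and 23.5 with siFOXN3-2. The 3 groups were separate, with siControl in the middle. As a log2 fold change this was 0.51 ± 0.0542 (SE, adjusted p = 1.93e-05 by limma) with siFOXN3-1 and -0.30 ± 0.0542 (SE, adjusted p = 8.21e-04 by limma) with siFOXN3-2, a difference of -0.81 ± 0.0542 (SE, adjusted p = 1.80e-05 by limma). LAMA3, an alpha chain of epithelial laminin, had too low a mean for the test, with 0.427, 0.701 and 0.620 FPKM in siControl, 0.507, 0.426 and 0.498 with siFOXN3-1 and 0.478, 0.333 and 0.397 with siFOXN3-2. Its level in siControl was far below that of LAMB3, and the 3 ranges overlapped.

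The chains of the ubiquitous laminins went different ways. LAMB2 (chr3:49121114-49133118), a beta chain of kidney, synapse and vessel laminins, was at 21.5, 24.4 and 23.4 FPKM in siControl, 15.1, 15.0 and 14.8 with siFOXN3-1 and 17.6, 14.01 and 15.7 with siFOXN3-2. All 6 knockdown samples were below siControl, and the knockdown groups overlapped. On the log2 scale the change was -0.59 ± 0.0786 (SE, adjusted p = 9.06e-05 by limma) with siFOXN3-1 and -0.53 ± 0.0786 (SE, adjusted p = 2.19e-04 by limma) with siFOXN3-2. LAMB1 (chr7:107923799-108003255), the alternative beta chain, was at 22.8, 25.5 and 24.4 FPKM in siControl, 24.8, 24.2 and 23.3 with siFOXN3-1 and 24.7, 20.9 and 23.8 with siFOXN3-2. All groups overlapped and the log2 fold changes were -0.00 ± 0.0698 (SE, adjusted p = 0.961 by limma) and -0.07 ± 0.0698 (SE, adjusted p = 0.426 by limma), the first of which became 0.20 with the medians of all genes aligned, as above. LAMC1 (chr1:183023460-183145592), the gamma chain of most laminins, was at 26.4, 32.4 and 29.3 FPKM in siControl, 39.7, 41.0 and 39.0 with siFOXN3-1 and 33.7, 26.02 and 32.1 with siFOXN3-2. The siFOXN3-1 samples exceeded all others, and siFOXN3-2 overlapped with siControl. In the fit its log2 fold change was 0.43 ± 0.0978 (SE, adjusted p = 0.00285 by limma) with siFOXN3-1 and 0.05 ± 0.0978 (SE, adjusted p = 0.646 by limma) with siFOXN3-2, and the siRNAs differed by -0.38 ± 0.0978 (SE, adjusted p = 0.0133 by limma). The ratio of LAMA5 to LAMC1 FPKM was 0.570 ± 0.0219 in siControl, 0.198 ± 0.01004 with siFOXN3-1 and 0.204 ± 0.00887 with siFOXN3-2. The ratio of LAMB3 to LAMB2 was 1.24 ± 0.0315, 2.77 ± 0.148 and 1.48 ± 0.162 in the same order. For both ratios the knockdown samples did not overlap with siControl; no test was made.

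**Figure D4:**
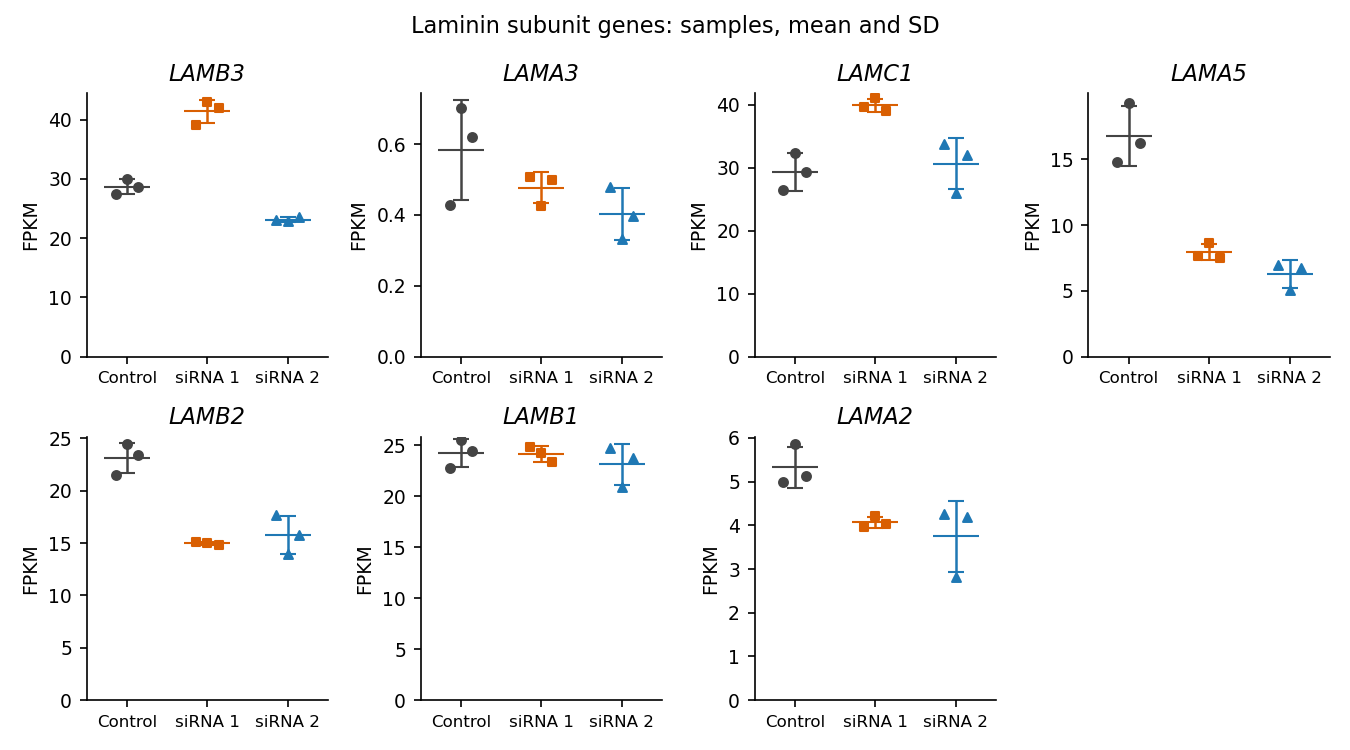
FPKM of 7 laminin chain genes in the 3 siControl samples (grey), 3 siFOXN3-1 samples (orange, siRNA 1) and 3 siFOXN3-2 samples (blue, siRNA 2), with the mean and SD; every axis starts at 0. LAMA5 and LAMB2 are lower with both siRNAs, LAMB3 lies above siControl with siRNA 1 and below it with siRNA 2, and LAMB1 overlaps in all groups.

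Compared directly, siFOXN3-2 differed from siFOXN3-1 in 10 of the 19 genes, of which 9 were lower and 1, ITGA6, was higher with siFOXN3-2. Over all tested genes 10.7% were lower and 25.4% higher with siFOXN3-2 than with siFOXN3-1. Groups did not overlap for 12 of the 19 genes, where 46.0% of all tested genes did not. The median log2 difference was -0.31 for the 19 and 0.08 for all tested genes. Aligning the medians gave 11 lower and 0 higher, beside 1982 lower and 1942 higher genes over all. FOXN3 itself differed between the siRNAs by -0.18 ± 0.0708 (SE, adjusted p = 0.0659 by limma). With siFOXN3-2 represented by its sample 1 alone, the one whose treatment label names siFOXN3, 6 of the 19 were called lower and 0 higher. Against siControl that single sample gave 2 higher and 10 lower, beside 2378 higher and 3893 lower of all 12707 tested genes, and between the siRNAs 1850 of all were higher and 856 lower. The calls of ITGAE and ITGA7 against siControl, and of ITGA5, ITGA6, ITGB4 and LAMC1 between the siRNAs, were then lost, with 1 sample in the group that is assumed to vary like the others. By pattern over both comparisons with siControl, 6 genes were lower with both siRNAs (ITGA3, ITGAE, ITGB4, LAMA2, LAMA5 and LAMB2), 2 were higher with both (ITGA5 and ITGB1) and 1 had opposite calls (LAMB3). The same patterns held for 33.4%, 15.3% and 1.46% of all tested genes; both comparisons share the siControl samples. A further 5 were called lower with siFOXN3-2 alone (ITGA2, ITGA7, ITGA10, ITGAV and ITGB5), as were 5.32% of all tested genes. ITGA7 entered the tests only through its siControl level, so no direction is read from its call. For the other 4 the difference between the siRNAs passed. LAMC1 was called higher with siFOXN3-1 alone, and ITGA4, ITGA6, ITGB3 and LAMB1 were called with neither, beside 3.56% and 22.1% of all tested genes.

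The other 18 genes had a mean below 1 FPKM, and 16 of them were below 1 FPKM in every sample. ITGA1, a collagen receptor subunit, was at 1.24, 1.33 and 1.24 FPKM in siControl, 0.868, 0.886 and 0.717 with siFOXN3-1 and 0.503, 0.499 and 0.620 with siFOXN3-2. All groups were separate, with siFOXN3-2 lowest. Its exons share 5.63% of their length with genes on the same strand. ITGA2B, the platelet fibrinogen receptor subunit, was at 1.195, 1.14 and 1.10 FPKM in siControl, 0.650, 0.573 and 0.586 with siFOXN3-1 and 0.752, 0.498 and 0.518 with siFOXN3-2. Both knockdown groups lay below siControl. ITGAL and ITGB2, which together form the leukocyte receptor LFA-1, had their highest means with siFOXN3-2. ITGAL was at 0.0331, 0.0402 and 0.0553 FPKM in siControl, 0.00808, 0.00848 and 0.00882 with siFOXN3-1 and 0.0545, 0.0837 and 0.0769 with siFOXN3-2. ITGB2 was at 0.150, 0.0920 and 0.113 FPKM in siControl, 0.177, 0.105 and 0.109 with siFOXN3-1 and 0.208, 0.199 and 0.2198 with siFOXN3-2. ITGAL rested on 4 to 7 recovered reads per sample in siControl, 1 with siFOXN3-1 and 6 to 10 with siFOXN3-2. ITGB2 rested on 12 to 27 reads over all samples. At such low counts the order of the groups is uncertain. The siFOXN3-2 samples exceeded all others for ITGB2, while for ITGAL they overlapped with siControl and exceeded siFOXN3-1. These are the samples in which the leukocyte markers were also highest in sum; of the 10, 2 lay above siControl in all siFOXN3-2 samples and 8 overlapped with it (PTPRC at 0.136 to 0.199 FPKM against at most 0.0739 in siControl and 0 in all siFOXN3-1 samples, LYZ at 1.22 to 1.60 against at most 0.985 and 0.0647), and their part in the result was not tested. ITGAL also shares 9.56% of its exon length with genes on the opposite strand. The highest values of the remaining genes were 0.602 FPKM for LAMC3, 0.545 for ITGB6, 0.460 for ITGAM, 0.455 for ITGAX, 0.216 for ITGA11, 0.208 for ITGB8, 0.161 for LAMA4, 0.127 for ITGAD and 0.0690 for ITGA9. LAMA1 did not exceed 0.0314 FPKM, ITGB7 0.0358, ITGA8 0.0152 and LAMB4 0.00742 FPKM, and of these ITGB7, ITGA8 and LAMB4 were listed at 0 in at least 1 sample.

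Genes that work with integrins and laminins were read from 6 lists. Those named had the largest rises and falls by mean log2 fold change over the 2 comparisons with siControl. They were taken from the genes called in the same direction in both. FERMT1 is named in addition. Of 9 tested basement membrane partners, 1 was higher and 5 lower with siFOXN3-1, and 0 were higher and 7 lower with siFOXN3-2, with medians of -0.34 and -0.48. AGRN, the proteoglycan agrin, which binds laminin, went from 31.7 ± 2.29 FPKM in siControl to 18.2 ± 1.68 and 14.3 ± 1.95 (SD, n = 3 each), log2 fold changes of -0.77 ± 0.0997 (SE, adjusted p = 7.57e-05 by limma) and -1.10 ± 0.0997 (SE, adjusted p = 7.46e-06 by limma). SPARC, a collagen-binding matrix protein, went from 5.66 ± 0.634 to 2.87 ± 0.187 and 3.07 ± 0.331 FPKM, log2 fold changes of -0.78 ± 0.0873 (SE, adjusted p = 2.84e-05 by limma) and -0.71 ± 0.0873 (SE, adjusted p = 5.88e-05 by limma). Both were lower in all knockdown samples. Of 19 tested other integrin ligands, 7 were higher and 10 lower with siFOXN3-1, and 7 higher and 11 lower with siFOXN3-2 (medians -0.16 and -0.18). By that mean, the rises named were of matricellular proteins that integrins bind. CYR61 (CCN1) went from 98.7 ± 4.63 to 804 ± 39.5 and 700.4 ± 34.5 FPKM, log2 fold changes of 3.01 ± 0.0627 (SE, adjusted p = 5.40e-10 by limma) and 2.81 ± 0.0627 (SE, adjusted p = 8.71e-10 by limma). CTGF (CCN2) went from 27.7 ± 0.701 to 167 ± 3.32 and 286 ± 14.9 FPKM, log2 fold changes of 2.55 ± 0.0529 (SE, adjusted p = 5.40e-10 by limma) and 3.32 ± 0.0529 (SE, adjusted p = 3.03e-10 by limma). By the same mean the falls named were of FBN2, the microfibril protein fibrillin 2 (-0.84 and -0.95), and SPP1, the integrin ligand osteopontin (-0.74 and -0.91).

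Of 10 tested other laminin receptors and hemidesmosome genes, 3 were higher and 4 lower with siFOXN3-1 and 1 was higher and 4 lower with siFOXN3-2 (medians 0.06 and -0.10). SDC4, the heparan sulphate co-receptor syndecan 4, went from 37.2 ± 1.59 FPKM in siControl to 102 ± 4.70 with siFOXN3-1 and 91.6 ± 6.68 with siFOXN3-2, log2 fold changes of 1.44 ± 0.0649 (SE, adjusted p = 8.27e-08 by limma) and 1.28 ± 0.0649 (SE, adjusted p = 2.07e-07 by limma). DAG1, the laminin receptor dystroglycan, went from 17.9 ± 0.612 to 9.17 ± 0.275 and 5.33 ± 0.524 FPKM, log2 fold changes of -0.89 ± 0.0659 (SE, adjusted p = 1.87e-06 by limma) and -1.58 ± 0.0659 (SE, adjusted p = 5.87e-08 by limma). PLEC, the plakin that links ITGB4 to keratins, fell as well (-0.66 and -1.15). Of 22 tested integrin activators and adaptors, 6 were higher and 10 lower with siFOXN3-1, and 2 higher and 10 lower with siFOXN3-2 (medians -0.10 and -0.22). FERMT2, kindlin 2, which binds the tail of ITGB1, rose (0.64 and 0.19), as did the GTPase RAP1A (0.28 and 0.41). TNS2, a tensin of mature adhesions, fell (-1.49 and -1.52). The tensin TNS3 (-0.998 and -0.974) and FERMT1 (-0.53 and -0.61) entered the tests only through siControl, where they averaged 2.56 and 1.85 FPKM. Both siRNA groups stayed under the filter of 1 FPKM (means 0.778 and 0.812 for TNS3, 0.981 and 0.878 for FERMT1). No direction is read from TNS3 and FERMT1, although both are among the 10 lower genes of each comparison. Of 22 tested focal adhesion signalling genes, 4 were higher and 8 lower, then 5 higher and 8 lower (medians -0.05 and -0.13). CRKL (0.56 and 0.29) and RHOA (0.18 and 0.51) rose, and ELMO2 (-0.78 and -0.73) and ARHGAP35 (-0.44 and -0.93) fell with both siRNAs. Of 16 tested tetraspanin and trafficking genes, 3 were higher and 5 lower with siFOXN3-1, and 5 higher and 9 lower with siFOXN3-2 (medians -0.00 and -0.23). ARRDC3, an arrestin-domain adaptor (1.15 and 0.96), and CD9, a tetraspanin (0.90 and 0.51), rose. The tetraspanin CD82 (-0.48 and -0.98) and SNX17, which recycles integrins from endosomes (-0.82 and -0.45), fell. Counts in each list are to be read beside the shares of all tested genes given above.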

How the data were processed

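RNA of 9 H1299 samples (3 groups of 3, grouped by sample title) was measured as polyadenylated RNA with an NEBNext Ultra kit that does not mark strand, per the labels' protocols. The authors deposited FPKM per gene. Per the submitters' processing notes reads were handled by StringTie 1.3.3b, HISAT2 2.1.0 and fastp 0.14.0, and the genome was GRCh38. Annotation and counting options: not given in the sources used here. Values of 1 to 50 reads came out whole within 0.05 for 98.2 to 98.3% when FPKM steps were divided by GENCODE 29 exon lengths, which gave 17.0 to 19.6 M fragments per sample. FPKM, the unit of the deposited values, stayed the main unit, and voom on the recovered reads was an added alternative. Symbols were matched for 34730 of 34789 genes, and the 37 integrin and laminin genes described were found; 1 further gene that the naming rule finds is not reported here.

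From the deposited values, log2 of FPKM with a pseudocount of 1 was fitted in limma 3.58.1 (R 4.3.3) with 3 groups and a mean-variance trend for the 12707 genes whose mean reached 1 FPKM (6 residual and 4.03 prior degrees of freedom). The 3 comparisons set either siRNA against siControl and the siRNAs against each other. All tests were two-sided, with Benjamini-Hochberg adjustment over all tested genes and a threshold of 0.05. Means are given with SD over 3 samples, and a log2 fold change of FPKM + 1 understates changes of low genes. On simulated data for siFOXN3-1 against siControl with 12707 genes, the fit recovered 71% of genes changed by 0.5 and 97% of those changed by 1 on the log2 scale, with 3.45% false calls. The simulation changed 100 genes by each amount, drawn from genes above a set siControl level, with independent normal noise. In the data 19.3% of genes were called higher and 45.3% lower with siFOXN3-1, so these rates need not carry over.

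Genes and lists were chosen with earlier results of these data known. The 37 integrin and laminin genes are named, and of each list of partner genes at most 4 called in the same direction with both siRNAs. These are the 2 largest rises and the 2 largest falls by mean log2 fold change over both. FERMT1 is named in addition, for its entry into the tests through siControl alone. Genes most alike over the samples are not given, since the samples fall into 3 separate groups. Marker lists covered epithelial, lung epithelial, leukocyte, endothelial, fibroblast and muscle, and megakaryocyte genes. In the alternatives the pseudocount, the filter, the scaling, the moderation, the samples in the fit and a replicate block were changed, and each sample was left out in turn. Promoter sequences are from RefSeq (GRCh38.p14). Figures were drawn with Python 3.11.15, pandas 2.3.3, numpy 2.4.6 and matplotlib 3.10.9.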

Additional observations from a re-analysis of the deposited data

Results flagged for a closer look

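For 10 genes the effect of the 2 siRNAs differed by the direct test between them (limma, adjusted p under 0.05 over all 12707 tested genes), and each value is the log2 difference of siFOXN3-2 from siFOXN3-1. Among integrin alpha subunits it was -1.12 for ITGA2, -0.96 for ITGAV, -0.72 for ITGA10, -0.58 for ITGA3, -0.36 for ITGA5 and 0.21 for ITGA6. For the beta subunits it was -0.42 for ITGB5 and -0.34 for ITGB4. Among laminin chains it was -0.81 for LAMB3 and -0.38 for LAMC1. In all 10 the samples of the 2 knockdown groups did not overlap, which their selection by this same comparison favours. Of all tested genes, 46.0% did not overlap, and 25.4% were called higher and 10.7% lower with siFOXN3-2 than with siFOXN3-1. ITGA2, ITGAV, ITGA10 and ITGB5 were not called with siFOXN3-1 against siControl, whereas LAMB3 was called in opposite directions. The siRNA and the other RNAiMAX that the treatment labels name for siFOXN3-2 cannot be told apart.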

How the results depend on the processing

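Of 57 results on single genes, 36 kept their direction and their side of the threshold under all 20 alternatives, and of 34 calls, 24 did. Voom on the recovered reads and siFOXN3-2 by its sample 1 alone were chosen after seeing the data. A filter of 5 FPKM tests fewer genes and gave 4708 calls with siFOXN3-1 (2930 lower) and 4716 with siFOXN3-2 (2475 lower); without a filter all 37 genes were tested and 19 were lower with siFOXN3-2, beside 6904 of 34789 genes. Median ratio scaling gave 3979 higher genes with siFOXN3-1, 9 of them integrin or laminin genes, with LAMB1 reversed to 0.20, and between the siRNAs 1942 higher genes with 0 of these. With quantile normalization 1 of the 19 was higher with siFOXN3-2 (3746 of all 12707), and between the siRNAs 2075 genes were higher with 0 of the 19. Without the eBayes trend, with only the 2 compared groups, and with the replicate block, 0 of the 19 were higher between the siRNAs (3191, 2601 and 2419 of all). By sample 1 alone the siRNAs differed in 2706 genes (1850 higher, 856 lower), with 6 of the 19 called and 0 higher, a fit with fewer samples. The difference of FOXN3 between the siRNAs passed the threshold with a pseudocount of 0.1 (-0.33), median ratio scaling (-0.24), quantile normalization (-0.25), no trend (-0.18) and voom (-0.36). The cause of the changes with scaling, normalization and moderation was not tested. Leaving out 1 sample in turn gave 0 to 1 higher genes of the 19 between the siRNAs; ITGA6 lost its call without siControl sample 3, any siFOXN3-1 sample, or siFOXN3-2 sample 2 or 3.

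Samples with the same number did not deviate together (correlations of -0.28 to 0.05 over the 9 pairs). Pairs with different numbers had correlations of -0.16 to 0.27. No pairing by number was seen, but 3 samples per group cannot exclude it. With the replicate block, 4 genes were higher and 5 lower with siFOXN3-1, 2 higher and 12 lower with siFOXN3-2, and 0 higher and 8 lower between the siRNAs. Over all 12707 genes the block gave 2240 higher and 5428 lower, 2811 higher and 4611 lower, and 2419 higher and 1046 lower.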
